A study of Rattus norvegicus with 17 samples.

Results

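Collagen genes other than type IV were examined in rat gastrocnemius, a calf muscle, by RNA sequencing of ribosome-depleted total RNA. They were the 36 of 32495 named genes of the count table whose symbol is a collagen chain (Col, a type number, a, a chain number) and does not begin with Col4a. By the structure of the chains, 10 were fibrillar, 9 were fibril-associated and 17 belonged to other types. No named entry was Col1a2, Col6a3 or Col21a1, so the sums and shares given here leave out these chains. The study compared rats bearing a tumor and given chemotherapy (6 samples), rats bearing a tumor without chemotherapy (5 samples) and healthy rats (5 samples), all on the control diet. The labels do not name the tumor, the chemotherapy agent, its dose or timing, or the strain, sex and age of the rats. They also do not say which sample came from which animal, so p-values here measure the spread between these samples.

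Collagens are secreted proteins whose chains wind in threes into a triple helix. In muscle, types I and III form the tension-bearing fibrils around fibers and bundles, type V starts fibrils and limits their width, and the fibril-associated types coat the fibril surface. Types VI, XV and XVIII lie at the border between the fibrils and the basement membrane, and fibroblasts of the muscle and of the tendon make most of the fibrillar chains.

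The deposited libraries held 3023899 to 15777909 counts each. Chemotherapy libraries 11 and 12 differed by a chi-square of only 2.04 per degree of freedom, against 5.47 for the next closest pair within a group, and were summed and counted as 1 sample, called library 11. Alignment names end in MB or VM, with no meaning given. VM stood on 5 of the 6 chemotherapy samples, all 5 tumor samples and 1 of the 5 healthy samples, so suffix and health could hardly be separated. A principal component analysis of 1000 variable genes set healthy libraries 1, 3 and 4 apart, at 27.7, 33.0 and 42.0 on its main axis, against at most 19.8 in any other sample. Muscle fiber markers were high in every sample, with a summed level of 171774 to 215307 CPM (counts scaled to a common library size, with a factor for library composition) in chemotherapy samples, 172223 to 240564 CPM in tumor samples and 211326 to 316120 CPM in healthy samples. CPM is not corrected for gene length, so levels are compared mainly between samples. Where genes are set side by side, as shares, sums or ratios of counts, gene length is part of the difference.

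Together the 36 collagens took 0.518% ± 0.351 of the counts (SD, n = 6) in chemotherapy samples, 0.833% ± 0.467 (n = 5) in tumor samples and 0.965% ± 0.422 (n = 5) in healthy samples. Col1a1, which encodes a chain of type I collagen, made up 36.0% to 70.4% of these collagen counts in chemotherapy samples, 44.6% to 72.9% in tumor samples and 35.1% to 71.8% in healthy samples. The other type I chain, Col1a2, is not in these counts. Without Col1a1 the collagens summed to 2237 ± 738 CPM in chemotherapy samples, 2890 ± 1083 CPM in tumor samples and 4719 ± 1645 CPM in healthy samples. Because 1 gene held so much of the sum, the genes are described one by one.

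**Figure D1:**
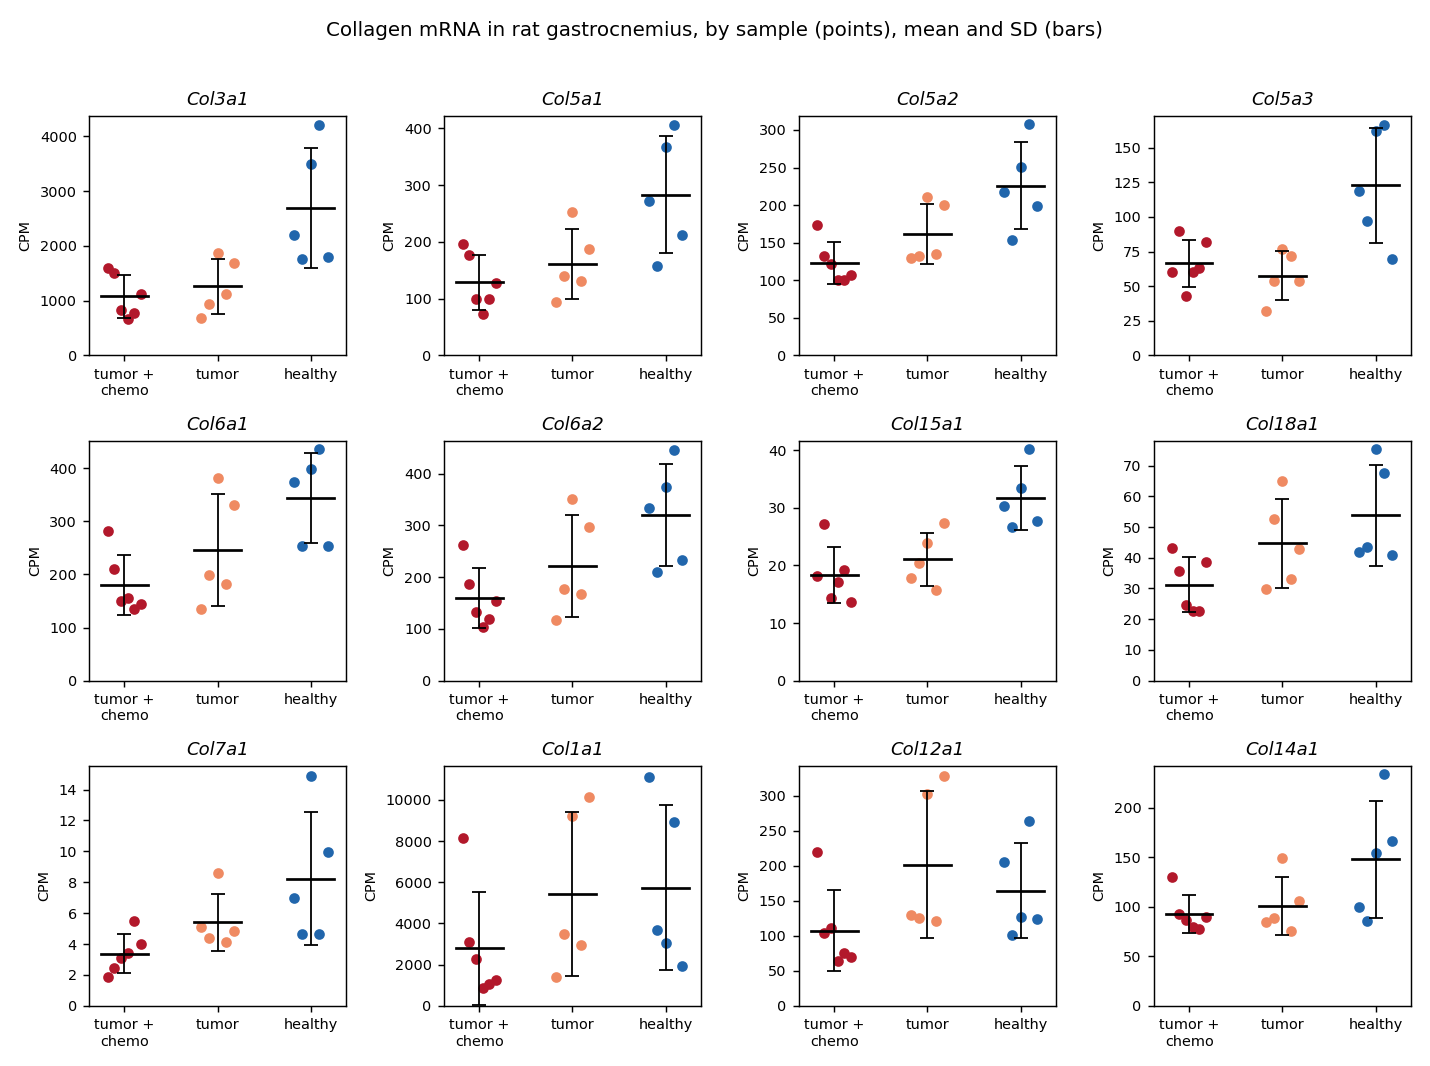
Level of 12 collagens in each of the 16 samples, in CPM on a linear axis from 0, with chemotherapy samples at the left, tumor samples in the middle and healthy samples at the right of each panel. Points are samples, horizontal bars are group means and error bars are SD. In Col3a1 no chemotherapy sample reaches the lowest healthy sample, whereas Col1a1 spans 12.9-fold over the 16 samples with all groups overlapping.

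The first comparison set tumor-bearing rats given chemotherapy against healthy rats, which differ in the tumor and in the treatment at once. Of the 36 collagens, 27 had enough reads to be tested. Of these, 9 were called lower at an adjusted p below 0.05, 0 were called higher and 18 were not called. Of all 11856 genes tested, 6.41% were called lower and 7.30% higher. The median log2 fold change of the collagens was -0.68, against -0.02 over all genes, and 24 of 27 fold changes were negative, against 51.2% of all genes. In bulk muscle, fewer cells of a type and less RNA per cell cannot be told apart.

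The fibrillar collagens called lower were Col3a1 and the 3 chains of type V, 4 of the 10 tested. Col3a1, the only chain of type III collagen, ranged from 672 to 1594 CPM in chemotherapy samples, with a median of 978 CPM, against 2207, 1753, 3499, 4200 and 1795 CPM in healthy samples. Every chemotherapy sample lay below every healthy sample, which held for no other of the 27 collagens tested here; over all genes, 1.98% lay lower without overlap and 2.02% higher. The log2 fold change was -1.31 ± 0.30 (SE; adjusted p = 0.0262, edgeR).

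Col5a1 and Col5a2 encode the chains of the widespread form of type V collagen, and Col5a3 a chain of a rarer form. Col5a1 ranged from 72.5 to 197 CPM in chemotherapy samples, with a median of 114 CPM, against 272, 158, 368, 406 and 213 CPM in healthy samples. Col5a2 ranged from 100.1 to 173 CPM in chemotherapy samples, with a median of 114 CPM, against 218, 154, 251, 308 and 198 CPM in healthy samples. Col5a3 ranged from 43.0 to 90.0 CPM in chemotherapy samples, with a median of 61.7 CPM, against 119, 97.3, 162, 166 and 69.4 CPM in healthy samples. In Col5a1 and Col5a2 the only healthy sample inside the chemotherapy range was library 2, and in Col5a3 it was library 5. Log2 fold changes were -1.13 ± 0.29 for Col5a1 (adjusted p = 0.0290), -0.88 ± 0.19 for Col5a2 (0.0261) and -0.89 ± 0.24 for Col5a3 (0.0308).

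Col1a1 was not called. It read 8141 CPM in chemotherapy library 11 and 863 to 3119 CPM in the 5 other chemotherapy samples, against 11096, 3703, 3067, 8907 and 1935 CPM in healthy samples. Library 11 lay above 3 of the 5 healthy samples, and the groups overlapped. The log2 fold change was -1.04 ± 0.61 (adjusted p = 0.226), close to that of Col5a1 with a wider error. The pooled SD within groups on the log2 scale was 1.16 for Col1a1, against 0.56 for Col3a1, 0.55 for Col5a1 and 0.34 for Col5a2. Without chemotherapy library 11, the log2 fold change of Col1a1 was -1.74 with an adjusted p of 0.0368, and over all the fits that left out 1 sample its adjusted p ran from 0.0368 to 0.469.

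The 5 other fibrillar collagens tested were not called either. Col2a1, Col11a1 and Col11a2, chains of the fibrils of cartilage that are also made in tendon, had log2 fold changes of -1.01 ± 0.52, -0.54 ± 0.43 and -0.28 ± 0.53. Col27a1 had one of -0.15 ± 0.34. Col24a1, known from bone, had the only positive value among the fibrillar collagens, 0.39 ± 0.28, with 13.3 ± 5.44 CPM in chemotherapy samples and 9.94 ± 1.66 CPM in healthy samples.

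None of the 6 fibril-associated collagens tested was called with edgeR, limma-voom or DESeq2 size factors, and 1 of them, Col14a1, had an unadjusted p below 0.05. Over all genes 17.5% were lower and 18.9% higher at that p. Col14a1, whose protein binds to type I fibrils, ranged from 77.2 to 130.5 CPM in chemotherapy samples, with a median of 88.1 CPM, against 100.2, 85.8, 154, 234 and 166 CPM in healthy samples. Its log2 fold change was -0.68 ± 0.23 with an adjusted p of 0.0518, just past the threshold, and the DESeq2 Wald test and a filter at a mean of 5 CPM called it lower. Col12a1, which coats fibrils in tendon and muscle sheaths, averaged 107 ± 58.2 CPM in chemotherapy samples and 164 ± 68.0 CPM in healthy samples (log2 fold change -0.61 ± 0.36). Col16a1 averaged 29.7 ± 14.2 CPM in chemotherapy samples and 46.1 ± 15.8 CPM in healthy samples (-0.62 ± 0.32). In both the groups overlapped, and library 11 was the highest chemotherapy sample. Without chemotherapy library 11, 3 of the 6 were called lower, Col12a1 at -0.95 (adjusted p = 0.0409), Col16a1 at -0.95 (0.0291) and Col14a1 at -0.81 (0.0246). That fit called 1384 of all genes lower, against 760 with all samples. Over all fits that left out 1 sample, the adjusted p of Col12a1 ran up to 0.539, that of Col16a1 up to 0.395 and that of Col14a1 from 0.0096 to 0.185. Col22a1, found at the muscle-tendon junction, averaged 26.8 ± 2.70 CPM in chemotherapy samples and 24.7 ± 4.03 CPM in healthy samples (0.11 ± 0.19). Col20a1 and Col19a1 had log2 fold changes of -0.03 and 0.15 at mean levels of at most 2.89 CPM in each group.

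Among the other types, 5 of the 11 collagens tested were called lower, and all 11 had negative fold changes. Type VI collagen forms beaded filaments around muscle fibers from chains that include those of Col6a1 and Col6a2. Col6a1 ranged from 134 to 283 CPM in chemotherapy samples, with a median of 153 CPM, against 375, 254, 399, 436 and 253 CPM in healthy samples. Col6a2 ranged from 104 to 263 CPM in chemotherapy samples, with a median of 143 CPM, against 334, 209, 374, 446 and 234 CPM in healthy samples. In both genes library 11 was the highest chemotherapy sample, and it alone passed any healthy sample. Log2 fold changes were -0.93 ± 0.26 for Col6a1 (adjusted p = 0.0318) and -0.998 ± 0.28 for Col6a2 (0.0337). Col6a6, another chain of the type, had -0.61 ± 0.21 and an adjusted p of 0.0540, and Col6a5 had -0.86 ± 0.62 at 1.55 ± 1.35 CPM in chemotherapy samples and 3.03 ± 2.82 CPM in healthy samples.

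Col15a1 and Col18a1 encode the related types XV and XVIII, which sit at basement membranes of muscle fibers and vessels. Col15a1 ranged from 13.7 to 27.2 CPM in chemotherapy samples, with a median of 17.7 CPM, against 30.4, 26.6, 33.5, 40.3 and 27.7 CPM in healthy samples. Chemotherapy library 13 alone reached the healthy range, and the 5 others were at 13.7 to 19.3 CPM. Col18a1 ranged from 22.7 to 43.2 CPM in chemotherapy samples, with a median of 30.2 CPM, against 41.9, 43.6, 75.5, 67.7 and 40.8 CPM in healthy samples. Log2 fold changes were -0.81 ± 0.18 for Col15a1 (adjusted p = 0.0261) and -0.78 ± 0.23 for Col18a1 (0.0382). Col7a1, which forms the anchoring fibrils of skin, was low in muscle, at 1.85 to 5.48 CPM in chemotherapy samples, with a median of 3.26 CPM, against 6.98, 4.66, 14.9, 4.65 and 9.93 CPM in healthy samples. Its log2 fold change was -1.34 ± 0.34 (adjusted p = 0.0289), the lowest of the 27. In Col18a1 chemotherapy library 11 reached into the healthy range, and in Col7a1 chemotherapy library 16 did.

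The remaining collagens of this class were not called. Col8a1 and Col8a2, chains of the short type VIII made in vessel walls, had log2 fold changes of -0.89 ± 0.37 and -0.40. Col13a1, a membrane collagen of the neuromuscular junction, had -0.41, and Col28a1, known around Schwann cells, had -0.05.

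**Figure D2:**
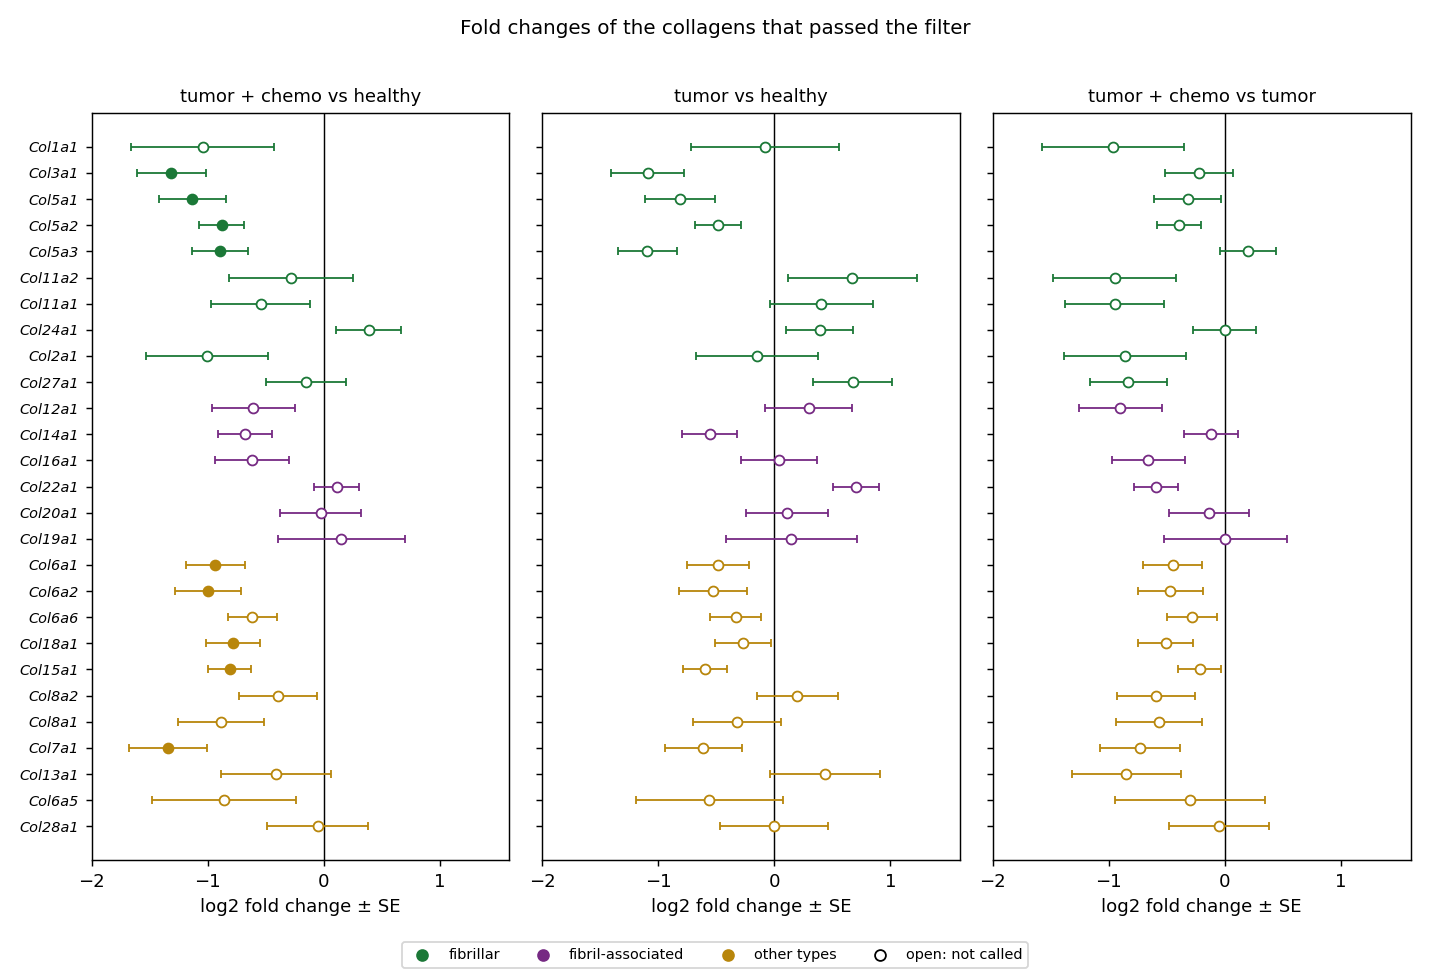
Log2 fold change ± SE of the 27 collagens tested, in 3 panels for chemotherapy against healthy, tumor against healthy and chemotherapy against tumor. Filled points were called at an adjusted p below 0.05 and open points were not; the 9 filled points are all in the first panel, all below 0.

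These 9 calls changed with single samples, as did the calls over all genes. Leaving out healthy library 1, 3 or 4, or chemotherapy library 13, 14 or 15, left 0 collagens called. In each of these fits 0 of all genes were called, against 1625 with all samples. Over all fits that left out 1 sample, the log2 fold change of Col3a1 ran from -1.46 to -1.11, with adjusted p up to 0.0871. That of Col18a1 ran from -0.91 to -0.64, with adjusted p up to 0.113, the highest among the 9 (edgeR). Leaving out chemotherapy library 16 left 4 called (Col3a1, Col5a2, Col7a1 and Col15a1), and leaving out chemotherapy library 11 gave 16. Over all genes these fits called 529 and 2889. Within the VM samples, healthy library 5 was the only healthy sample. Log2 fold changes there were -0.87 for Col3a1, -0.89 for Col5a1, -0.82 for Col5a2, -0.04 for Col5a3 and -0.67 for Col6a1. They were -0.75 for Col6a2, -0.62 for Col15a1, -0.50 for Col18a1 and -1.42 for Col7a1. Without healthy libraries 1, 3 and 4 together the same 9 genes ranged from -1.20 for Col7a1 to -0.33 for Col5a3. In that fit 0 collagens and 0 of all genes were called.

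Markers of other cell types were read in the same comparison. Over all genes, 6.41% were called lower and 7.30% higher, and 17.5% were lower and 18.9% higher at an unadjusted p below 0.05. Of 9 markers of fibroblasts and fibro-adipogenic cells, 4 were called lower (Smoc2, Cd34, Cxcl14 and Pdgfra), and the 9 summed to 1651 to 3111 CPM in chemotherapy samples, 1962 to 3831 CPM in tumor samples and 2003 to 3617 CPM in healthy samples. Most of that sum came from Gsn and Dcn, which were not called. They held 203252 and 91597 counts over all samples, against 10550 for the next, Pdgfra. Of 6 markers of pericytes and smooth muscle, 4 were called lower (Cspg4, Notch3, Acta2 and Pdgfrb), with sums of 205 to 299 CPM in chemotherapy samples, 291 to 455 CPM in tumor samples and 333 to 410 CPM in healthy samples. Among the 6 pericyte and smooth muscle markers Rgs5 alone was positive (log2 fold change 0.31), and it was not called. Of 7 fiber markers, Acta1 and Ckm were called lower, and Tnnt3 alone was positive (0.24, not called). Of 4 endothelial markers, Tie1 was called lower (-0.64) and Emcn higher (0.72), and the list summed to 101 to 131 CPM in chemotherapy samples, 133 to 166 CPM in tumor samples and 127 to 164 CPM in healthy samples. Of 7 tendon markers 0 were called, and 1 had an unadjusted p below 0.05, which is near the share over all genes. Of 8 cartilage and bone markers, 3 had enough reads to be tested and 0 were called, 1 with an unadjusted p below 0.05, while Matn1 and Bglap were at 0 in all samples. In 4 further lists 0 markers were called: adipocyte (3 tested, 2 higher at an unadjusted p below 0.05, median 1.95), red blood cell (4 tested, 3 lower at that p, median -0.97), macrophage (6 tested, 1 lower at that p, median -0.17) and Schwann cell (4 tested, 0 at that p, median 0.24). The adipocyte markers summed to 35.6 to 359 CPM in chemotherapy samples, 23.1 to 170.2 CPM in tumor samples and 21.7 to 69.1 CPM in healthy samples. The red blood cell markers summed to 118 to 891 CPM in chemotherapy samples, 221 to 571 CPM in tumor samples and 422 to 1342 CPM in healthy samples. The macrophage markers summed to 175 to 342 CPM in chemotherapy samples, 145 to 284 CPM in tumor samples and 177 to 380 CPM in healthy samples. The Schwann cell markers summed to 87.9 to 406 CPM in chemotherapy samples, 88.9 to 414 CPM in tumor samples and 95.6 to 264 CPM in healthy samples. The part of these cell types in the collagen differences was not tested.

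The second comparison set tumor-bearing rats without chemotherapy against the same healthy rats. No collagen was called, 0 of 27, with edgeR or limma-voom, and 0 of all 11856 genes were called with edgeR. The DESeq2 Wald test called 1 collagen, Col5a3, and 29 of all genes. At an unadjusted p below 0.05, 6 of the 27 were lower and 1 was higher, against 9.12% and 8.88% of all genes. The median log2 fold change of the collagens was -0.15, against 0.01 over all genes, and 16 of 27 were negative, against 49.0%. Groups overlapped in every collagen tested, against 0.557% of all genes lower and 0.439% higher without overlap.

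The 6 with the lower values were Col3a1, Col5a1, Col5a2, Col5a3, Col14a1 and Col15a1. Col5a3 read 32.3, 53.5, 76.7, 71.7 and 53.5 CPM in tumor samples, against 119, 97.3, 162, 166 and 69.4 CPM in healthy samples (log2 fold change -1.09 ± 0.25, adjusted p = 0.211, edgeR). Col3a1 read 691, 946, 1868, 1118 and 1693 CPM in tumor samples, against 2207, 1753, 3499, 4200 and 1795 CPM in healthy samples (-1.09 ± 0.31, adjusted p = 0.211). Tumor libraries 8 and 9 reached the healthy range of Col5a3, and tumor library 8 that of Col3a1. Without healthy library 2, both were called, with adjusted p-values of 0.0445 for Col5a3 and 0.0461 for Col3a1, and over all fits that left out 1 sample they ran up to 0.514 for each. The fit without healthy library 2 called 504 of all genes, against 0 with all samples.

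Col22a1 had the highest positive value. It read 41.8, 59.6, 45.8, 29.3 and 23.5 CPM in tumor samples, against 29.4, 24.1, 23.0, 19.3 and 27.8 CPM in healthy samples. Tumor libraries 6, 7 and 8 lay above every healthy sample, and libraries 9 and 10 did not. The log2 fold change was 0.71 ± 0.20 (adjusted p = 0.211). Col1a1 averaged 5431 ± 3965 CPM in tumor samples and 5742 ± 4015 CPM in healthy samples (-0.08 ± 0.64), and its 2 highest tumor samples, libraries 8 and 10, read 9226 and 10127 CPM against 1376 to 3480 CPM in the 3 others. By type, the medians were -0.11 for the fibrillar, 0.13 for the fibril-associated and -0.33 for the other collagens.

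The third comparison set tumor-bearing rats with chemotherapy against tumor-bearing rats without it, which by their sample labels differ in the treatment alone. By alignment name, chemotherapy library 11 had the suffix MB and all other samples of both groups had VM. No collagen was called, 0 of 27 with edgeR, limma-voom or DESeq2, which gave no adjusted p for Col7a1, and of all 11856 genes edgeR called 0 and DESeq2 8. At an unadjusted p below 0.05, 6 of the 27 were lower, against 3.81% of all genes, and 0 were higher, against 1.97%. In all, 25 of 27 fold changes were negative, against 49.4% of all genes, with a median of -0.47 against 0.00. Lower at that p were also 4 of 7 tendon, 4 of 6 pericyte and smooth muscle and 3 of 4 endothelial markers. Their medians were -0.53, -0.76 and -0.38. Of 9 fibroblast markers 1 was lower at that p, with a median of -0.28. Macrophage, adipocyte and Schwann cell markers had positive medians of 0.20, 0.39 and 0.10. The part of these cell types was not tested. The comparison shares its chemotherapy samples with the first comparison and its tumor samples with the second.

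The 6 collagens lower at that p were Col7a1, Col11a1, Col12a1, Col18a1, Col22a1 and Col27a1, of which Col7a1 and Col18a1 had also been called against healthy rats. Col22a1 ranged from 22.7 to 30.2 CPM in chemotherapy samples, with a median of 27.4 CPM, against 41.8, 59.6, 45.8, 29.3 and 23.5 CPM in tumor samples (log2 fold change -0.59 ± 0.19, adjusted p = 0.778, edgeR). Col12a1 ranged from 63.4 to 220 CPM in chemotherapy samples, with a median of 90.1 CPM, against 130, 125, 303, 121 and 329 CPM in tumor samples (-0.90 ± 0.36). Chemotherapy library 11 was the only chemotherapy sample above the lowest tumor sample of Col12a1. Col1a1 had -0.96 ± 0.61, Col11a1 -0.95 ± 0.43 and Col18a1 -0.51 ± 0.23.

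Col3a1 and Col5a3 stood otherwise. Col3a1 averaged 1082 ± 392 CPM in chemotherapy samples, 1263 ± 500 CPM in tumor samples and 2691 ± 1101 CPM in healthy samples, and its log2 fold change between chemotherapy and tumor was -0.22 ± 0.30. Col5a3 averaged 66.4 ± 16.9 CPM in chemotherapy samples, 57.5 ± 17.6 CPM in tumor samples and 123 ± 41.7 CPM in healthy samples, with 0.20 ± 0.24 between chemotherapy and tumor. For both, the means of the 2 tumor-bearing groups differed by less than the spread within either group.

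The collagens did not share 1 order of samples. For each of the 27 tested, the 5 highest samples were set against the 5 highest for the summed level of 7 tendon markers, which were tumor libraries 8 and 10, chemotherapy library 11 and healthy libraries 1 and 5. In 9 collagens 4 of the 5 were shared, namely Col1a1, Col2a1, Col8a1, Col8a2, Col11a1, Col11a2, Col12a1, Col16a1 and Col28a1. In another 9, among them Col3a1, Col5a1, Col5a2, Col6a1, Col6a2 and Col15a1, 3 were shared, and in the remaining 9, among them Col5a3 and Col18a1, 2 or fewer were. In 4 collagens, Col3a1, Col5a1, Col5a3 and Col15a1, 4 of the 5 highest samples were healthy, in 8 there were 3 healthy samples and in 15 there were 2 or fewer. The tendon markers summed to 315 to 1066 CPM in chemotherapy samples, 581 to 1475 CPM in tumor samples and 369 to 894 CPM in healthy samples. Most of that sum came from Thbs4 and Fmod, which held 47690 and 31758 counts over all samples, against 9107 for the next, Kera. The order of samples by tendon markers therefore rests mainly on these 2 genes. How many of these samples genes outside the collagens shared was not counted. The share of tendon in each sample was not tested. This ranking was added after values had been seen.

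Healthy library 3 and tumor library 10 lay at the ends. Library 10 read 10127 CPM of Col1a1 and 1693 CPM of Col3a1, a count ratio of 5.98. Library 3 read 3067 CPM of Col1a1 and 3499 CPM of Col3a1, a ratio of 0.877. The ratio ran from 1.13 to 5.11 in chemotherapy samples, from 1.99 to 5.98 in tumor samples and from 0.877 to 5.03 in healthy samples. It was thus not fixed within any group, although the 2 genes partly shared their order of samples. Among chemotherapy samples library 11 was the highest and library 15 the lowest in both genes, and among tumor samples library 6 was the lowest in both. Fibromodulin (Fmod), a tendon proteoglycan that binds type I fibrils, averaged 177 ± 118 CPM in chemotherapy samples, 326 ± 143 CPM in tumor samples and 171 ± 75.1 CPM in healthy samples. Between tumor and healthy samples it was not called (log2 fold change 0.94, adjusted p = 0.250, edgeR). That was the highest value of the 7 tendon markers, of which 5 were positive and 2 negative, with a median of 0.56.

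**Figure D3:**
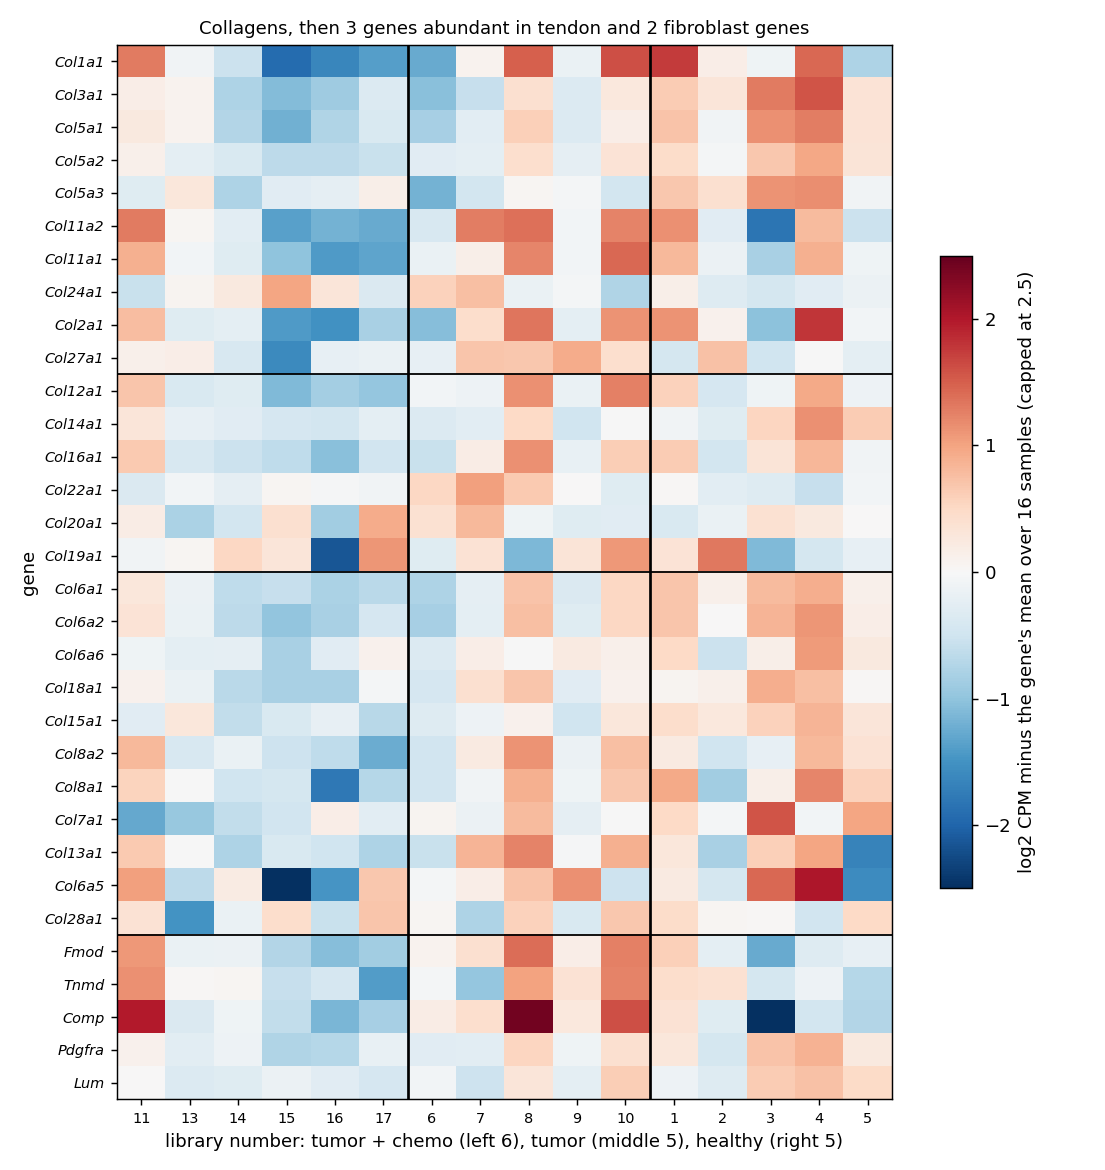
Log2 CPM of the tested collagens, 3 genes abundant in tendon and 2 fibroblast genes, as the difference from each gene's mean over the 16 samples, with colors capped at 2.5. Samples run from chemotherapy at the left through tumor to healthy at the right; the 5 highest samples of Col1a1 come from all 3 groups, and 4 of the 5 highest of Col3a1 are healthy.

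**Figure D4:**
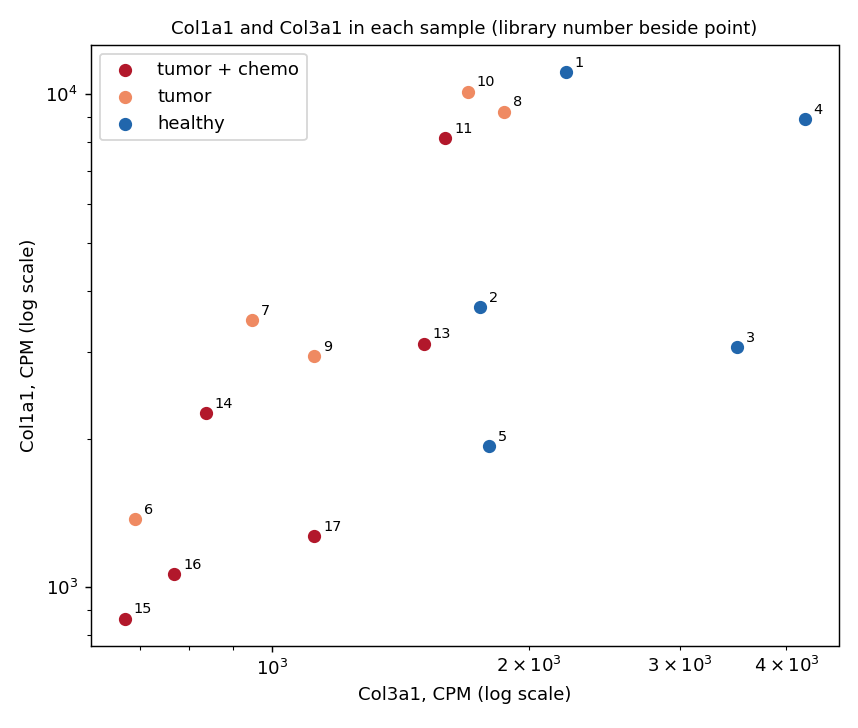
Level of Col1a1 (vertical) against that of Col3a1 (horizontal) in each of the 16 samples, in CPM on log axes, colored by group and numbered by library. Healthy library 3 has the lowest ratio of Col1a1 to Col3a1 counts (0.877) and tumor library 10 the highest (5.98).

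Promoters were read because 9 collagens were called in one direction. Of the 36 collagens, 27 had a promoter in the RefSeq set of assembly GRCr8. Col3a1 and Col6a2 did not, and the 7 others of the 9 called lower did. The 4 of these with the smallest p-values are shown, each as the 250 bases before the RNA start, 5′ to 3′ on the gene's strand, with capitals marking matches on either strand to a CCAAT box, to GGGCGG (the core of a GC box) or to the TATA box letters TATAAA.
Col5a2, chr9:55090152-55090401, minus strand: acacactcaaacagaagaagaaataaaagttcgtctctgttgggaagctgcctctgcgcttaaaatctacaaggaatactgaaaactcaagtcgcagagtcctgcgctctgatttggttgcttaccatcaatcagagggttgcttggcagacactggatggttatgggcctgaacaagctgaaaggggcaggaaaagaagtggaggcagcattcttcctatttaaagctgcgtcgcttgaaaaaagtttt
Col15a1, chr5:66297296-66297545, plus strand: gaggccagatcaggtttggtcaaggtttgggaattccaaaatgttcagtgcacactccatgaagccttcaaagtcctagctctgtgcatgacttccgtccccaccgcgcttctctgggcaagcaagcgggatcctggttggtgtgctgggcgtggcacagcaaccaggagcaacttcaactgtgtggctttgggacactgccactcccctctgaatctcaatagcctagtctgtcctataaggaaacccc
Col7a1, chr8:118483114-118483363, plus strand: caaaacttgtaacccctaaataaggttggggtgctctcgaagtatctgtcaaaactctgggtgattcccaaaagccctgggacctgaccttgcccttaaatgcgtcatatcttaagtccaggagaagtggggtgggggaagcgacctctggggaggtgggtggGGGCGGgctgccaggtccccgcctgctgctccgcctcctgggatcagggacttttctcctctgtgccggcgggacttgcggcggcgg
Col5a1, chr3:31606630-31606879, plus strand: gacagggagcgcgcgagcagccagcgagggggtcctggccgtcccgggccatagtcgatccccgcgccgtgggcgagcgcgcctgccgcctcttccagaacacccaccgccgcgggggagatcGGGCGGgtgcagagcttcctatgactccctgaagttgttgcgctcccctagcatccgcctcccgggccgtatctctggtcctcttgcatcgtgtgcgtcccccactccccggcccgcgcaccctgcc
A match to GGGCGG begins 87 bases before the start in Col7a1 and 127 bases before it in Col5a1. Over the whole 300-base windows, GGGCGG was in 4 of the 7 promoters of collagens called lower and in 9 of the 13 of collagens tested and not called, against 34.9% of 27457 promoters of all genes. CCAAT was in 1 of the 7 and 4 of the 13, against 37.7% of all, and TATAAA in 0 of the 7 and 1 of the 13, against 14.3%. Each motif was searched for on its own, so that matches to different motifs could share bases, and no match says only that these letters are not in the window. In the same assembly Col3a1 and Col5a2 are neighbors on chromosome 9, and Col6a1 and Col6a2 on chromosome 20, and these 4 genes were called lower. Col6a6, Col6a5 and Col6a4 lie in a row on chromosome 8, and Col9a1 lies beside Col19a1 on chromosome 9. Of these 5, Col6a4 and Col9a1 were not tested and the other 3 were not called.

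The genes that build, cut and bind collagen were read from lists drawn up for the pathway. Their counts stand beside the shares over all genes of 6.41% called lower and 7.30% called higher. In chemotherapy against healthy samples, 19 genes of chain folding and hydroxylation were tested, and 1 was called lower, 1 higher and 17 not, with a median log2 fold change of -0.40, so that its shares of calls were near those of all genes. Ppib, a prolyl isomerase of the collagen folding complex, was called lower (-0.69, adjusted p = 0.0488), and Mia2, which helps to load procollagen for export, was called higher (1.14 ± 0.31, 0.0318). Mia2 averaged 73.7 ± 16.8 CPM in chemotherapy samples and 34.0 ± 17.8 CPM in healthy samples. Serpinh1, the collagen chaperone HSP47, averaged 95.0 ± 30.1 CPM in chemotherapy samples and 155 ± 55.4 CPM in healthy samples and was not called (-0.70, adjusted p = 0.0553).

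Of 12 genes of propeptide cleavage and crosslinking, 2 were called lower and all 12 were negative, with a median of -0.61. Furin, a protease that activates the enzymes that trim procollagen, had a log2 fold change of -0.74 (adjusted p = 0.0279), and Loxl2, a lysyl oxidase that crosslinks collagen, one of -1.01 (0.0355). Loxl1, a related oxidase, was not called (-0.81, adjusted p = 0.0685). Of 18 fibril-binding proteins, 4 were called lower, with a median of -0.43. They were fibrillin (Fbn1, -1.06), elastin (Eln, -1.005), biglycan (Bgn, -0.76) and fibronectin (Fn1, -0.91). The medians of these 3 lists were negative, as was that of the fibrillar collagens, -0.89.

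The list of collagen breakdown held enzymes, an uptake receptor (Mrc2) and the inhibitors Timp1, Timp2, Timp3 and Timp4, which oppose breakdown. Of 9 tested, 3 were called lower, with a median of -0.64. The 4 inhibitors were not called, at -0.49 for Timp2, -0.32 for Timp1, -0.28 for Timp3 and -0.02 for Timp4. The 3 called were the membrane metalloprotease Mmp14 (-0.87), the gelatinase Mmp2 (-0.76) and Fap (-0.64), a peptidase of activated fibroblasts. Of 7 collagen receptors, 3 were called lower, the integrin chain Itga11 (-0.80) and the receptor kinases Ddr1 (-0.47) and Ddr2 (-0.79). Of the 6 type IV collagens, 5 were tested and all 5 were called lower, with no overlap between the groups and a median of -1.16. In the other two comparisons no gene of these lists was called. Leaving out healthy library 1, 3 or 4, or chemotherapy library 13, 14 or 15, left 0 of all genes called in the first comparison, and so 0 of these.

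Of the collagens, 9 did not have enough reads to be tested. They were Col6a4, Col9a1, Col9a2, Col9a3, Col10a1, Col17a1, Col23a1, Col25a1 and Col26a1. Apart from Col17a1, none passed 1.87 CPM in any sample. Col10a1, a marker of growth cartilage, was at 0 in every chemotherapy and healthy sample, and Col23a1 had 0 counts in all 16 samples. A count of 0 allows up to 3 counts, which is 0.190 to 0.992 CPM per deposited library before composition scaling, counting error only.

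Col17a1, a membrane collagen of the epidermis, read 60.0 CPM in tumor library 8 and at most 1.14 CPM in every other sample. In the same library 23 genes reached at least 10 CPM and at least 20 times the highest other sample, among them Krt10, Krt1, Krt14 and Krt5, keratins of the epidermis, and the desmosomal gene Dsp. These genes were picked after their values had been seen. Col7a1, also made at the skin, read 8.61 CPM in that library, against 4.12 to 5.08 CPM in the other tumor samples. It was higher still in healthy libraries 3 and 5, at 14.9 and 9.93 CPM, where Col17a1 read 0.286 and 0.981 CPM. Without tumor library 8, 11 collagens were called lower between chemotherapy and healthy samples, all 9 of the full set among them. Over all genes 2287 were called in that fit, against 1625 with all samples.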

How the data were processed

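The authors deposited 1 table of read counts, raw and per gene, from 17 libraries of rat gastrocnemius, with no normalization. Per the labels' protocols, stranded libraries were made after ribosomal RNA had been removed. Tools in the submitters' processing notes are TopHat2 2.0.10, Bowtie2, CASAVA 1.9, FastQC 0.11.4 and Trim Galore 0.4.1. Neither the counting program nor the build and annotation behind the counts is given in the sources used here. Among counts from 1 to 10, the even ones held 45.9% to 59.5%. The highest shares were in healthy libraries 4 (59.5%) and 3 (56.5%), tumor library 8 (53.2%) and healthy library 1 (52.3%). Of 32883 entries, 388 without a name were left out, with 0.102% to 0.373% of the counts. This percentage was highest in the same libraries, healthy 4 (0.373%), 1 (0.279%) and 3 (0.247%) and tumor 8 (0.272%). The cause was not tested.

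Counts of libraries 11 and 12 were summed, although 17 samples had been planned. All 16 samples entered 1 edgeR 4.0.16 model in R 4.3.3 (TMM scaling, filterByExpr with a minimum count of 10, robust quasi-likelihood test, 13 residual degrees of freedom). Benjamini and Hochberg's adjustment ran over 11856 genes, with calls at an adjusted p below 0.05. The SE is the size of the log2 fold change over the square root of F. Levels are CPM with TMM factors, as mean ± SD. The script was tested on simulated data. Promoters came from RefSeq, matched by symbol. All 36 collagens had a RefSeq symbol, and 27 had a promoter. Alternatives used DESeq2 1.42.0, limma 3.58.1 and sva 3.50.0.

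The collagens, the lists and the tests were chosen with earlier results of these data known. Genes named are all 36 collagens, the 3 related genes with the smallest p of each list (type IV as a count only) and the called markers; Fn1 was named as the fourth call of its list, and the Timp genes, Mrc2 and the keratins were named after their values were seen. Fmod, Thbs4, Kera, Rgs5, Tnnt3, Gsn and Dcn were also named, outside this rule. Of the tendon markers Fmod, Thbs4 and Kera, and of the fibroblast markers Dcn and Lum, are also on the fibril-binding list.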

Additional observations from a re-analysis of the deposited data

Results flagged for a closer look

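In 84 sets of 1 collagen in 1 group, 9 held a sample that stood far from the others by Dixon's criterion. The criterion assumes normally distributed values and was applied to CPM not on a log scale. The sets also share samples, so the number that chance alone would give is not known. Of the 9 samples flagged, 7 were chemotherapy library 11, the sum of libraries 11 and 12 and the only chemotherapy sample with the suffix MB. It read 8141 CPM of Col1a1, 144 CPM of Col11a2, 220 CPM of Col12a1, 130.5 CPM of Col14a1, 57.7 CPM of Col16a1, 26.7 CPM of Col8a2 and 7.95 CPM of Col2a1, each the highest of the 6 chemotherapy samples. The same sample had the highest tendon marker sum of its group, 1066 CPM against 315 to 478 CPM in the 5 others. The other 2 were tumor library 8, with 60.0 CPM of Col17a1 and 8.61 CPM of Col7a1. The causes were not tested.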

How the results depend on the processing

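Between chemotherapy and healthy samples, DESeq2 size factors, limma-voom, a fit of only the 2 groups and a run without the 20 most abundant genes each called the same 9 collagens lower. Over all genes they called 1545, 2444, 1491 and 1607, against 1625 in the main fit. A DESeq2 Wald test called 11 (2577 of all genes), and library 11 alone without library 12 also 11 (1746). A mean of at least 5 CPM called 10 (1835), total counts only 8 (2017), no filter 7 (884) and 17 libraries 7 (1247). With 1 surrogate variable, the suffix as a term, or healthy libraries 1, 3 and 4 left out, 0 collagens and 0 of all genes were called. The collagen median was -0.081, -0.15 and -0.28 in these settings. It was -0.55 in VM libraries only, which hold 1 healthy sample. Leaving out 1 sample gave 0 to 16 called. The causes of these changes were not tested. Between tumor and healthy samples the DESeq2 Wald test called 1, and leaving out 1 sample gave 0 to 2.

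Some fold changes turned round. With 1 surrogate variable, chemotherapy against healthy gave 0.26 for Col1a1, 0.38 for Col12a1 and 0.38 for Col16a1, tumor against healthy 0.60 for Col1a1, 0.043 for Col6a6 and 0.12 for Col18a1, and chemotherapy against tumor 0.15 for Col3a1, 0.040 for Col5a1 and 0.13 for Col14a1. With the suffix as a term, chemotherapy against healthy gave 0.049 for Col1a1, and tumor against healthy 1.67 for Col1a1, 0.076 for Col6a1, 0.073 for Col6a2 and 0.17 for Col18a1. Tumor against healthy gave 1.48 for Col1a1 and 0.14 for Col18a1 in VM libraries only, and 0.94 for Col1a1, 0.13 for Col6a6 and 0.087 for Col18a1 without healthy libraries 1, 3 and 4. It gave 0.049 for Col1a1 with total counts only and -0.021 for Col16a1 with limma-voom. Leaving out 1 sample gave -0.44 to 0.29 for Col1a1 and -0.26 to 0.20 for Col16a1 in tumor against healthy, and -0.25 to 0.063 for Col14a1 in chemotherapy against tumor. None of these values had been called.

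Total counts only shifted the median of all genes to 0.12 in chemotherapy against healthy and 0.13 in tumor against healthy, and split the calls of the first into 1669 higher and 348 lower, against 865 and 760 with TMM. Over all genes the calls between chemotherapy and healthy ran from 0 to 3799 when 1 sample was left out, against 1625. Between tumor and healthy samples they ran from 0 to 504. No paired analysis was possible because the groups share no replicate numbers.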
